A study of Rattus norvegicus with 12 samples.

Results

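Gnpda1, which encodes glucosamine-6-phosphate deaminase 1, and 8 genes of the same hexosamine pathway were followed in fibroblast-like synoviocytes (FLS) exposed to taurochenodeoxycholic acid (TCDCA), a taurine-conjugated bile acid. Members were taken by gene name, and where a name belonged to several records the record of highest mean expression was used, which gave 9 of 22442 gene records. Gnpda1 was picked because its values under TCDCA lay below those of untreated cells, so its levels are given as a description without a test. The other 8 genes, called partners here, were picked for their place in the pathway and not for their values, and they were tested. The question was whether the lower Gnpda1 level was joined by a change of any partner.

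The cells of every group came from synovial tissue of male Sprague Dawley (SD) rats with adjuvant arthritis (AA), which was induced with complete Freund's adjuvant, and they were passaged in culture before use. The untreated control, FCA, was kept in DMEM without TCDCA. For 12 h the AT10 cells received 10 µM TCDCA (1e-05 M), the AT1 cells 1 µM (1e-06 M) and the AT01 cells 0.1 µM (1e-07 M). Poly(A) RNA of 3 libraries per group was sequenced, 12 libraries in all. Neither FLS of healthy rats nor a vehicle control were among the groups, so all values describe cells of arthritic joints. The study numbers the libraries of a group as repeats, and neither it nor the labels say whether repeats were separate animals or cultures, so p-values measure only the spread between these libraries, which may be technical.

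Expression is given in FPKM, fragments mapped to a transcript scaled to its length and to all mapped fragments of the library. Library sums ran from 284210 to 309696 FPKM, and 11471 to 11679 records per library were at 1 FPKM or above. Of 10 markers of synovial fibroblasts, 8 had a record and all 8 averaged at least 1 FPKM, among them Thy1 (112.46 to 157.89 FPKM) and Prg4 (26.78 to 37.49 FPKM). Of 8 macrophage markers 4 had a record, of which Csf1r stayed at or under 0.26 FPKM and Adgre1 at or under 0.03 FPKM while Cd68 ranged from 1.66 to 2.91 FPKM and Cd14 from 3.60 to 18.8 FPKM. The summed macrophage list ranged from 6.48 to 21.9 FPKM in FCA and from 5.71 to 21.4 FPKM over the TCDCA libraries. The 8 endothelial and lymphocyte markers with a record were all under 1 FPKM in every library. In bulk RNA, fewer cells of a type and less RNA per cell cannot be told apart.

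The hexosamine pathway turns fructose-6-phosphate and glutamine into UDP-N-acetylglucosamine (UDP-GlcNAc), the sugar donor for glycoproteins, hyaluronan and the O-GlcNAc mark on intracellular proteins. GFPT1 and GFPT2 make glucosamine-6-phosphate in the step that limits the pathway, and GNPNAT1, PGM3 and UAP1 carry it on to UDP-GlcNAc. GNPDA1 and GNPDA2 work against this flow, returning glucosamine-6-phosphate to fructose-6-phosphate and ammonia. NAGK and AMDHD2 handle N-acetylglucosamine recovered from degraded glycans. FLS are known as the hyaluronan-secreting cells of the joint lining.

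Gnpda1 (record MSTRG.8104, 1 transcript) stood at 26.33, 24.16 and 24.87 FPKM in the 3 FCA libraries. It stood at 6.98, 7.97 and 9.0 FPKM in AT10, at 8.28, 7.30 and 9.75 FPKM in AT1, and at 9.22, 7.78 and 8.30 FPKM in AT01. All 9 TCDCA libraries therefore lay below all 3 FCA libraries, with no value between 9.75 and 24.16 FPKM, and the 3 doses overlapped each other. Of all 11611 records tested, 1.9% had every TCDCA library below every FCA library, a share from which nothing is read here because Gnpda1 was picked by this contrast. The mean was 25.1 ± 1.11 FPKM in FCA (SD, n = 3), 7.98 ± 1.01 in AT10 (SD, n = 3), 8.44 ± 1.23 in AT1 (SD, n = 3) and 8.43 ± 0.729 in AT01 (SD, n = 3). On the log2(FPKM + 1) scale the difference from FCA was -1.55 at 10 µM, -1.48 at 1 µM and -1.47 at 0.1 µM, and the FCA mean was 3.15, 2.98 and 2.98 times the dose means in that order. These 3 comparisons share the same FCA libraries. Between doses the differences were -0.07 for AT10 against AT1, -0.07 for AT10 against AT01 and -0.004 for AT1 against AT01, and no dose stood apart from the others.

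**Figure D1:**
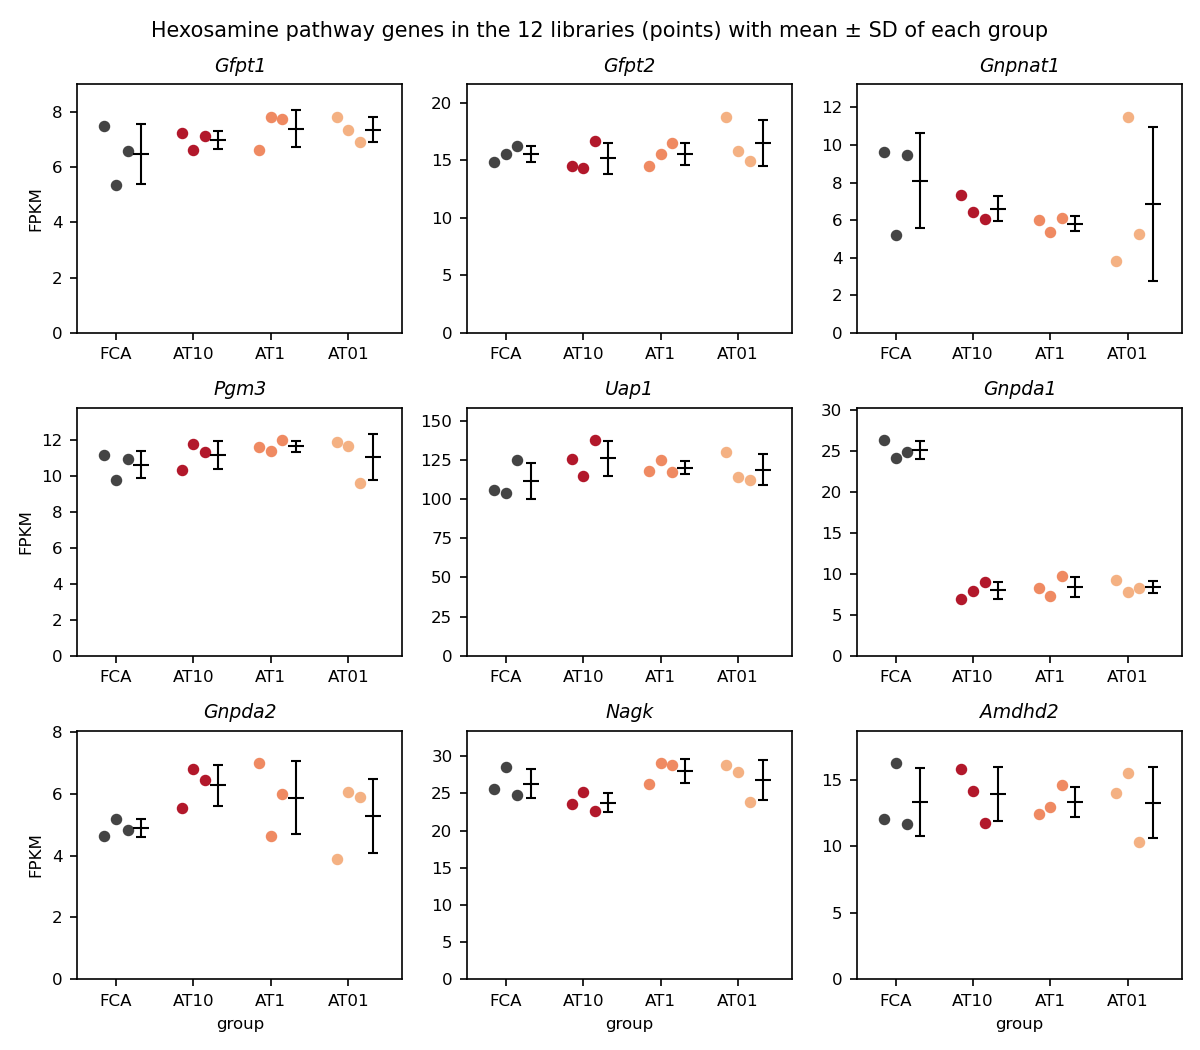
FPKM of the 9 hexosamine pathway genes in each of the 12 libraries (linear vertical axes starting at 0, 1 panel per gene), with points for libraries and bars for the group mean ± SD (n = 3). Gnpda1 is at 24.16 to 26.33 FPKM in FCA and at 6.98 to 9.75 FPKM in the 9 TCDCA libraries, while the ranges of the 8 other genes overlap between FCA and the pooled TCDCA libraries.

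Scaling between libraries moved the Gnpda1 means little. After scaling by median-of-ratios factors, which ran from 0.989 to 1.03, the Gnpda1 means were 24.9 FPKM in FCA, 7.91 in AT10, 8.27 in AT1 and 8.35 in AT01. Sharp steps between libraries were not rare in these data. Of the 11611 records tested, 525 (4.52%) split into 2 separate levels at least 1 log2 unit apart with at least 2 libraries in each, Gnpda1 among them, and no partner did.

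The partner that shares its reaction, Gnpda2 (MSTRG.5838), stood at 4.65, 5.20 and 4.82 FPKM in FCA, at 5.55, 6.82 and 6.45 in AT10, at 6.99, 4.64 and 5.99 in AT1, and at 3.89, 6.05 and 5.89 in AT01. The AT10 libraries were all above the FCA libraries, as in 10.7% of all records tested, whereas AT1 and AT01 each had 1 library below every FCA value. Its mean was 4.89 ± 0.282 FPKM in FCA and 6.27 ± 0.653 in AT10 (SD, n = 3 each). The difference was 0.30 on the log2(FPKM + 1) scale (SE 0.09, 95% interval 0.07 to 0.53), with an unadjusted p of 0.0188 and an adjusted p of 0.314 by limma with Benjamini-Hochberg adjustment. The two-sided exact permutation p was 0.1, the smallest that 3 libraries against 3 can give. At 1 and 0.1 µM the differences of Gnpda2 were 0.21 and 0.07, with limma adjusted p of 0.577 and 0.926. In the 9 TCDCA libraries together the difference was 0.19 (95% interval -0.09 to 0.48, limma adjusted p = 0.574), with 7 of 9 libraries above all FCA libraries and 2 below.

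The makeup of the deaminase transcripts differed between the groups. The summed level of both deaminase genes was 30.0 ± 0.856 FPKM in FCA (SD, n = 3) and 14.1 ± 1.35 FPKM under TCDCA (SD, n = 9), with ranges of 29.4 to 31.0 and 11.9 to 15.7. Gnpda1 made up 83.7% ± 1.35 of that sum in FCA (SD, n = 3) and 58.9% ± 5.12 under TCDCA (SD, n = 9). These sums contain Gnpda1 and carry the values it was picked for, so they too are a description.

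Of the enzymes that start the pathway, Gfpt1 (MSTRG.12772) stood at 7.50, 5.35 and 6.58 FPKM in FCA, at 7.24, 6.61 and 7.13 in AT10, at 6.62, 7.83 and 7.76 in AT1, and at 7.81, 7.36 and 6.90 in AT01. The groups overlapped at every dose. The pooled difference from FCA was 0.15 (95% interval -0.03 to 0.33, limma adjusted p = 0.482), and the doses gave 0.11, 0.18 and 0.17 for 10, 1 and 0.1 µM. Gfpt2 (MSTRG.2629), the more highly expressed of the pair in these cells, stood at 14.86, 15.50 and 16.21 FPKM in FCA and at 14.32 to 18.76 FPKM over the TCDCA libraries (median 15.6). Its pooled difference was 0.01 (95% interval -0.15 to 0.18, limma adjusted p = 0.955). The FCA range lay inside the TCDCA range. Together the 2 amidotransferases summed to 22.0 ± 1.02 FPKM in FCA (SD, n = 3) and 23.0 ± 1.80 FPKM under TCDCA (SD, n = 9).

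Gnpnat1 (MSTRG.6253), which acetylates glucosamine-6-phosphate and so draws on the same substrate as the deaminases, was the most uneven of the partners. It stood at 9.64, 5.18 and 9.46 FPKM in FCA, at 7.34, 6.41 and 6.06 in AT10, at 6.00, 5.35 and 6.10 in AT1, and at 3.80, 11.5 and 5.25 in AT01. Single libraries departed from their groups, FCA replicate 2 to the low side and AT01 replicate 2 to the high side. The differences from FCA were -0.22 at 10 µM, -0.37 at 1 µM (95% interval -0.94 to 0.19) and -0.29 at 0.1 µM (95% interval -1.30 to 0.72), with limma adjusted p of 0.708, 0.540 and 0.876. The pooled difference was -0.30 (95% interval -0.82 to 0.23, limma adjusted p = 0.638). Without FCA replicate 2 the pooled value was -0.55 and without FCA replicate 1 it was -0.16, while the AT01 value went from -0.69 without AT01 replicate 2 to 0.00 without AT01 replicate 1. A second record of the name, MSTRG.6252, was at 0 in 8 libraries, among them all of AT1 and AT01. It stood at 3.95 and 3.62 FPKM in FCA replicates 2 and 3, and at 6.61 and 7.30 FPKM in AT10 replicates 1 and 3. With both records of the name summed, the difference at 10 µM was 0.02 and at 1 µM -0.76, the latter with a limma adjusted p of 0.323. In that sum every AT1 library was below every FCA library. The share of all records doing so was not computed, so nothing is read from that separation.

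Pgm3 (MSTRG.17245), the mutase that moves the phosphate of N-acetylglucosamine-phosphate, stood at 11.16, 9.77 and 10.96 FPKM in FCA and at 9.61 to 12.01 FPKM over the TCDCA libraries (median 11.6). At 1 µM its 3 libraries, 11.60, 11.41 and 12.01 FPKM, were all above FCA, as in 9.87% of all records tested. The difference there was 0.13 (95% interval -0.05 to 0.30, limma adjusted p = 0.519, exact permutation p = 0.1), and pooled over doses it was 0.08 (95% interval -0.07 to 0.23, limma adjusted p = 0.661).

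Uap1 (MSTRG.5303), the pyrophosphorylase that completes UDP-GlcNAc, had the highest level of the 9 genes. It stood at 106.04, 103.98 and 124.79 FPKM in FCA, at 125.48, 114.99 and 137.65 in AT10, at 118.07, 124.65 and 117.12 in AT1, and at 130.20, 113.84 and 112.30 in AT01. FCA replicate 3 fell within the range of the treated libraries, and the other two FCA libraries were below all of them. The pooled difference was 0.12 (95% interval -0.04 to 0.29), with a limma adjusted p of 0.523 and an exact permutation p of 0.118.

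Of the salvage enzymes, Nagk (MSTRG.12718), the kinase that phosphorylates free N-acetylglucosamine, stood at 25.61, 28.52 and 24.78 FPKM in FCA, at 23.57, 25.18 and 22.57 in AT10, at 26.23, 29.05 and 28.79 in AT1, and at 28.78, 27.84 and 23.78 in AT01. Its AT10 libraries were all below its AT1 libraries, as in 8.16% of all records tested, a difference of -0.23 (SE 0.07) with an unadjusted p of 0.0208, a limma adjusted p of 0.748 and an exact permutation p of 0.1. Against FCA the pooled difference was -0.01 (95% interval -0.20 to 0.18, limma adjusted p = 0.976). Amdhd2 (MSTRG.2444), which removes the acetyl group from N-acetylglucosamine-6-phosphate and so feeds the substrate of the deaminases, stood at 12.03, 16.25 and 11.70 FPKM in FCA and at 10.34 to 15.81 FPKM over the TCDCA libraries (median 14.0). Its pooled difference was 0.02 (95% interval -0.25 to 0.30, limma adjusted p = 0.955).

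Counted together, 0 of the 8 partners passed an adjusted p of 0.05 in limma in any of the 7 comparisons. Against FCA, 0.172% of all 11611 records tested passed it at 10 µM, 0.0947% at 1 µM, 0.0947% at 0.1 µM and 0.0258% with the doses pooled. Between doses it was 0.258% for AT10 against AT1, 0.0689% for AT10 against AT01 and 0.129% for AT1 against AT01. The study called a gene at a log2 fold change beyond 1 in either direction together with an unadjusted p under 0.05. By this criterion 0 partners were called in any comparison, against 0.706%, 0.62%, 0.758% and 0.491% of all records in the comparisons with FCA and 0.594%, 0.672% and 0.568% between doses, in the same order. An F test of the kind used in Ballgown also called 0 partners. At an unadjusted p under 0.05 alone, limma gave 1 partner (Gnpda2) in AT10 against FCA, where 11.9% of all records passed, and 1 partner (Nagk) in AT10 against AT1, where 6.46% passed. The other 5 comparisons had 0 partners, with shares over all records of 11.0% for AT1, 6.6% for AT01 and 12% for the pooled libraries against FCA, 4.97% for AT10 against AT01 and 3.43% for AT1 against AT01. With shares this low over all records, 0 of 8 is close to the background and is not a result about the pathway by itself.

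The intervals say more about the partners than the counts. The lowest bound of any partner was -0.79 in AT10 against FCA, -0.94 in AT1, -1.30 in AT01 and -0.82 in the pooled comparison, each of them that of Gnpnat1. These bounds are for the 1 record used per gene name. Both Gnpnat1 records summed gave a difference of -0.76 in AT1, for which no interval is given here. The Gnpda1 differences of -1.55, -1.48, -1.47 and -1.50 lay below the bounds of the single records. That is a description only, since Gnpda1 was picked by these values. The median difference over the 8 partners was 0.06, 0.10, 0.06 and 0.05 in the same order, and over all records tested it was -0.01, 0.02, 0.00 and 0.00.

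**Figure D2:**
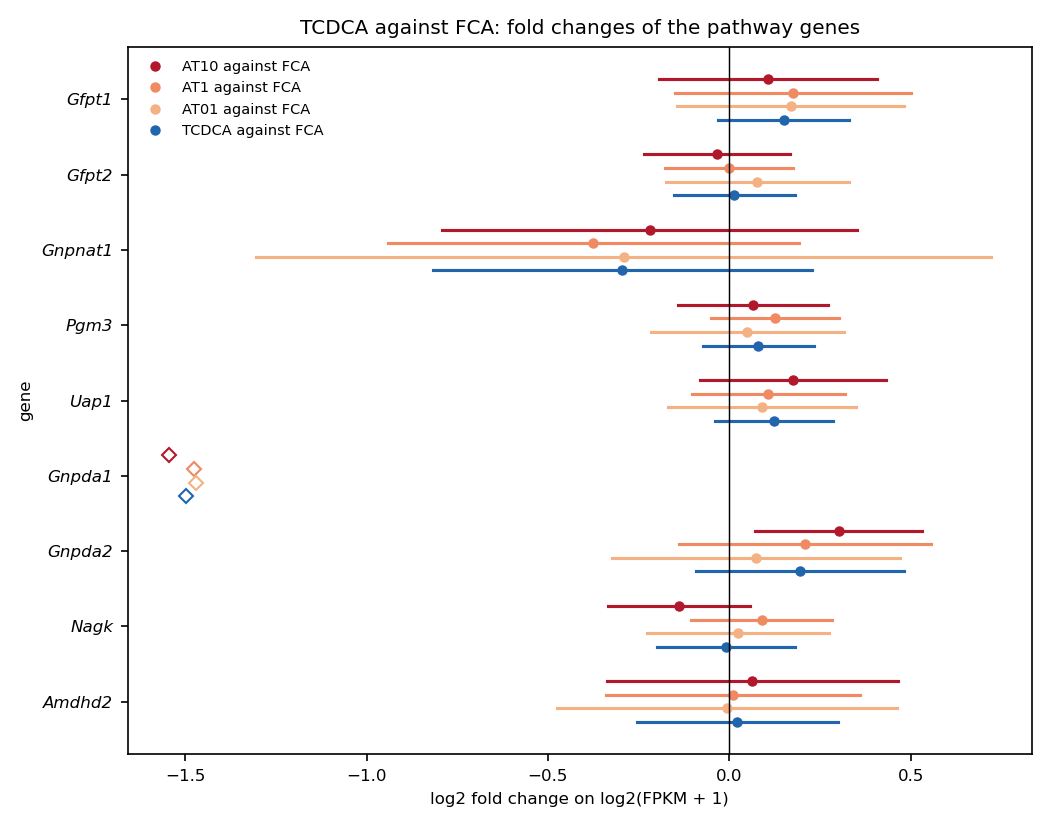
Difference from FCA on the log2(FPKM + 1) scale for the 9 genes at each dose and in the 9 TCDCA libraries together, with limma 95% intervals for the 8 partners (dots with lines) and open diamonds without an interval for Gnpda1, which was picked by these values. Gnpda1 sits at -1.55 to -1.47 while every partner value, from the 1 record used per gene name, lies between -0.37 and 0.30.

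The order of the genes by level differed between the groups through Gnpda1, and also among Gnpnat1, Gfpt1 and Gnpda2. In FCA the order of means was Uap1, Nagk, Gnpda1, Gfpt2, Amdhd2, Pgm3, Gnpnat1, Gfpt1 and Gnpda2, in FPKM and thus per length. Within that order Nagk overlapped Gnpda1, Gfpt2 overlapped Amdhd2, and Gnpnat1 overlapped Gfpt1 in library values. Under each dose Gnpda1 ranked 6 of 9 and overlapped Gfpt1. Gfpt1 ranked above Gnpnat1 at each dose. In AT1 Gnpnat1 (mean 5.82 FPKM) was last, below Gnpda2 (mean 5.87 FPKM), and the library values of the pair overlapped. The level of Nagk was 1.05 ± 0.114 times that of Gnpda1 in FCA (SD, n = 3) and 3.19 ± 0.425 times under TCDCA (SD, n = 9). Over all 12 libraries the highest value was 3.77 times the lowest for Gnpda1, 3.03 times for Gnpnat1 and 1.80 times for Gnpda2, and between 1.25 and 1.57 times for the other 6 genes.

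The wider pathway was read from a list of 58 further genes that supply the pathway, branch from it, use UDP-GlcNAc or release N-acetylglucosamine in lysosomes. Of these, 53 had a record, 49 were tested and 4 were below a mean of 1 FPKM, while the other 5 were not analysed here. By limma, 0 of the 49 passed an adjusted p of 0.05 and 0 met the criterion of the study in any of the 7 comparisons, where the shares over all records are the low ones given above for the partners. At an unadjusted p under 0.05, 1 was higher and 3 were lower in AT10, 2 were higher and 1 was lower in AT1, 2 were higher and 1 was lower in AT01, and 0 were higher and 3 were lower in the pooled TCDCA libraries. These are 8.16%, 6.12%, 6.12% and 6.12% of the list, against 11.9%, 11.0%, 6.6% and 12% of all records, so none of these counts exceeded its background. The median over the 49 genes was -0.02, 0.06, 0.01 and 0.01 in that order. Between doses 4.08% of the list passed for AT10 against AT1, 6.12% for AT10 against AT01 and 0% for AT1 against AT01. The shares of all records there were 6.46%, 4.97% and 3.43%.

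Among the 12 supply genes tested, Glul, which makes glutamine, stood at 170.1, 163.7 and 176.85 FPKM in FCA and at 151.81 to 171.01 FPKM under TCDCA, where 7 of 9 libraries were below all FCA libraries. Its pooled difference of -0.10 had an unadjusted p of 0.0495 and a limma adjusted p of 0.414. By dose Glul differed by -0.15, -0.09 and -0.07 at 10, 1 and 0.1 µM, with limma adjusted p of 0.374, 0.532 and 0.832. Gpi, which makes fructose-6-phosphate, differed by 0.01 (limma adjusted p = 0.968). The glutamine carrier Slc38a2 ranged from 108.40 to 209.83 FPKM in FCA and from 88.49 to 225.21 FPKM under TCDCA, a spread wider than its difference of 0.12 (limma adjusted p = 0.881).

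In the side branches, with 9 genes tested, Gne, the first enzyme of sialic acid synthesis, differed by -0.09 (limma adjusted p = 0.740). Nans and Cmas, later enzymes of the same branch, differed by 0.40 and 0.21, with limma adjusted p of 0.557 and 0.650. Nans ranged from 34.83 to 78.10 FPKM within FCA alone. The O-GlcNAc pair, Ogt (the transferase) and Mgea5 (the hydrolase, also called Oga), differed by 0.14 each, with limma adjusted p of 0.644 and 0.523. For Mgea5, 7 of 9 TCDCA libraries were above all FCA libraries and 1 was below.

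Alg14 and Hyal2, of the next groups, are named because of their values. Of the 9 genes of N-glycan and anchor synthesis tested, Mgat4b and Mgat1, glycan-branching N-acetylglucosaminyltransferases, differed by -0.18 and 0.34, with limma adjusted p of 0.442 and 0.673. Alg14, part of the enzyme that adds the second sugar of the N-glycan precursor, stood at 4.57, 14.17 and 13.91 FPKM in FCA and at 4.29 to 6.99 FPKM under TCDCA. FCA replicate 1 lay inside the TCDCA range and the other two FCA libraries far above it. The pooled difference was -0.68 (unadjusted p = 0.0204, limma adjusted p = 0.356, exact permutation p = 0.0818). Without FCA replicate 1 it was -1.15 with a limma adjusted p of 0.00461, so that 1 library decided the call.

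Hyaluronan and heparan sulfate synthesis had 6 genes tested. Has2, a hyaluronan synthase, stood at 25.83, 23.12 and 27.05 FPKM in FCA, at 5.20, 32.24 and 7.75 in AT10, at 5.67, 25.18 and 29.06 in AT1, and at 3.60, 5.26 and 29.10 in AT01. Each dose held libraries near the FCA level and libraries far below it, with no value between 7.75 and 23.12 FPKM. The pooled difference was -1.06 (SE 0.66, limma adjusted p = 0.538, exact permutation p = 0.3). Without AT01 replicate 3 the difference at 0.1 µM was -2.29 with a limma adjusted p of 0.0441. The heparan sulfate polymerases Ext1 and Ext2 differed by 0.07 and -0.02, with limma adjusted p of 0.581 and 0.966.

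Of the 11 lysosomal genes tested, Hexa, which encodes a subunit of a lysosomal hexosaminidase, differed by -0.01 (limma adjusted p = 0.964). Fuca1 and Glb1, which remove fucose and galactose from glycans, had pooled differences of -0.06 and 0.05, with limma adjusted p of 0.733 and 0.789. By dose Fuca1 differed by -0.18, -0.04 and 0.03 at 10, 1 and 0.1 µM, with limma adjusted p of 0.348, 0.779 and 0.931. Hyal2, a hyaluronidase, stood at 23.48, 26.41 and 22.38 FPKM in FCA and at 14.19 to 24.05 FPKM under TCDCA, where 6 of 9 libraries were below all FCA libraries. Its pooled difference was -0.38, with an unadjusted p of 0.0443 and a limma adjusted p of 0.402. By dose Hyal2 differed by -0.51, -0.20 and -0.44 at 10, 1 and 0.1 µM, with limma adjusted p of 0.297, 0.647 and 0.720.

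**Figure D3:**
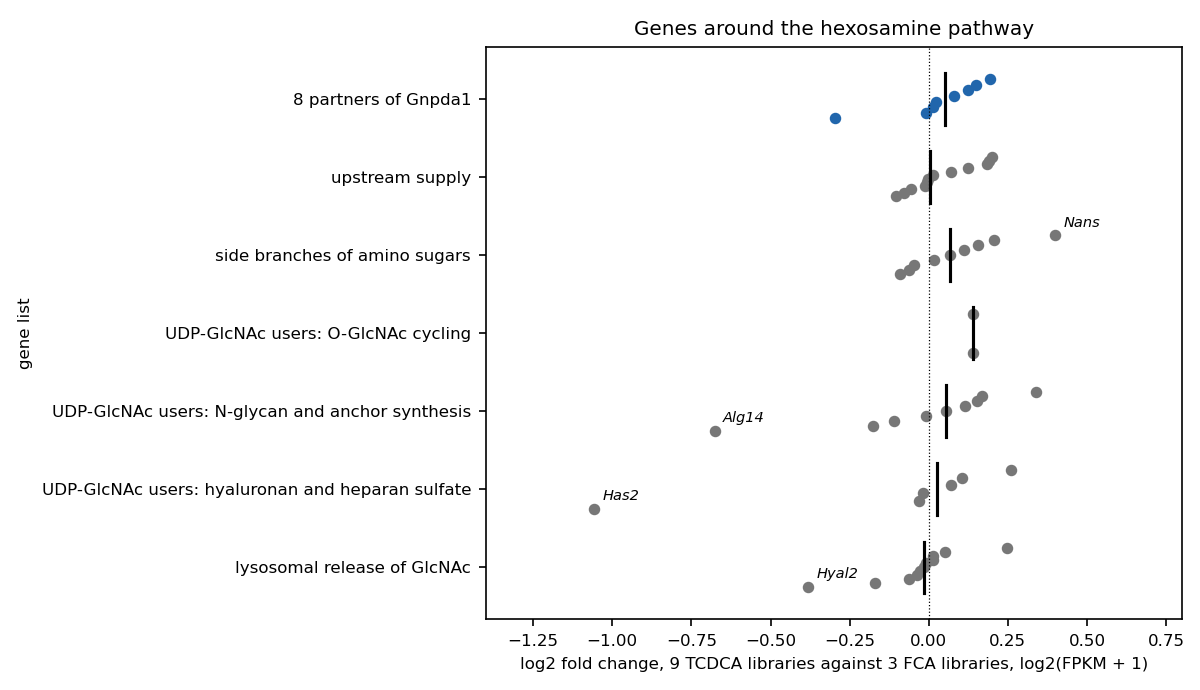
Pooled difference of the 9 TCDCA libraries from the 3 FCA libraries on the log2(FPKM + 1) scale for the 8 partners and the 49 wider pathway genes tested, 1 row per gene group, with dots for genes and vertical bars for the group medians. The wider genes lie between -1.06 (Has2) and 0.40 (Nans), and most dots of every group sit close to 0.

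Records numbered next to that of Gnpda1 by StringTie, which numbers assembled genes along the chromosome, were also read. RGD735029 (MSTRG.8101, named Dele1 in RefSeq, a relay of mitochondrial stress) stood at 12.56, 13.40 and 13.64 FPKM in FCA and at 8.43 to 13.04 FPKM under TCDCA. Of the 9 TCDCA libraries 8 were below all FCA libraries, and AT1 replicate 2 at 13.04 FPKM was the exception. For such counts short of full separation, of this and other genes, the share over all records was not computed, so nothing is read from them. The differences were -0.50 at 10 µM (SE 0.06, limma adjusted p = 0.0867), -0.34 at 1 µM (limma adjusted p = 0.463) and -0.49 at 0.1 µM (limma adjusted p = 0.348). The pooled difference was -0.44 (SE 0.11), with an unadjusted p of 0.00121, a limma adjusted p of 0.252 and an exact permutation p of 0.0182. It did not pass the adjusted threshold in any of these 4 comparisons.

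The remaining records numbered within 3 of Gnpda1 were read in the same way. Rnf14 (MSTRG.8102), a ubiquitin ligase gene, differed by -0.02 in the pooled comparison (limma adjusted p = 0.957). Ndfip1 (MSTRG.8106), an adaptor of Nedd4-type ubiquitin ligases, stood at 72.48 to 74.82 FPKM in FCA and at 63.93 to 73.10 FPKM under TCDCA, with 6 of 9 TCDCA libraries below all FCA libraries and a difference of -0.08 (limma adjusted p = 0.540, exact permutation p = 0.0364). An unnamed record beside Gnpda1 (MSTRG.8105) was at 0.32, 1.73 and 0.86 FPKM in FCA and at 0 to 1.00 FPKM under TCDCA, where 7 of 9 libraries were below all FCA libraries. Its means were 0.97 FPKM in FCA and 0.327 FPKM under TCDCA, and it was not tested because it lay under the filter. A second Ndfip1 record (MSTRG.8107), also under the filter, was listed at 0 in the 3 FCA libraries and at 0 to 1.11 FPKM under TCDCA. In RefSeq (assembly GRCr8, used for gene order only), Dele1 and Rnf14 lie on the same side of Gnpda1 and Ndfip1 on the other, and none of them overlaps it.

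**Figure D4:**
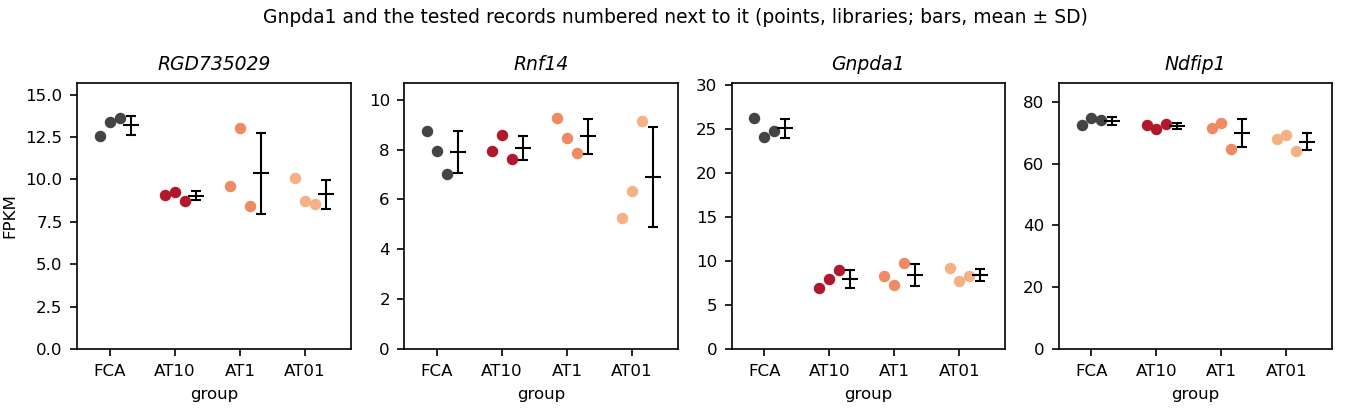
FPKM in each library for Gnpda1 and the tested records numbered within 3 of it (1 panel per record, linear axes starting at 0, points for libraries, bars for the group mean ± SD, n = 3). Gnpda1 goes from 24.16 to 26.33 FPKM in FCA to 6.98 to 9.75 FPKM under TCDCA. RGD735029 is at 12.56 to 13.64 FPKM in FCA and at 8.43 to 13.04 FPKM under TCDCA. It overlaps between FCA and TCDCA through AT1 replicate 2, and Rnf14 and Ndfip1 overlap as well.

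The genes whose pattern over the 12 libraries was most like that of Gnpda1 were ranked by Pearson's r of log2(FPKM + 1), as a description. All points share the 3 FCA libraries, so a gene with a step between FCA and TCDCA ranks high. The 5 highest were Zfp652, a zinc finger protein (r = 0.946), Tor4a, a torsin-family ATPase (0.920), Fkbp8, an immunophilin of mitochondria (0.912), Psmd9, a proteasome assembly factor (0.909), and Cep170b (0.897). Zfp652 stood at 2.58 to 3.40 FPKM in FCA and at 0.46 to 1.55 FPKM under TCDCA, and Tor4a at 9.66 to 13.05 and 0.66 to 3.60 FPKM, whereas Psmd9 went only from 16.17 to 17.62 FPKM to 14.20 to 15.35 FPKM. The 5 most opposite were Slc25a32, a mitochondrial folate carrier (r = -0.857), Dbt, a subunit of the branched-chain keto acid dehydrogenase (-0.845), RGD1563349 (-0.835), Abhd5, a co-activator of lipolysis (-0.834), and Tlk2, a protein kinase (-0.833). None of these 10 genes belongs to the hexosamine pathway or to the wider list. With 8 partners and 49 wider genes among the 11611 records tested, that was likely in any case, and nothing is read from it. Of the 5 highest, 1 was also among the 5 highest by Spearman's rho. The partners had r from -0.457 (Gfpt1) to 0.291 (Gnpnat1) with a median of -0.192, against a median of -0.006 over all records tested.

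**Figure D5:**
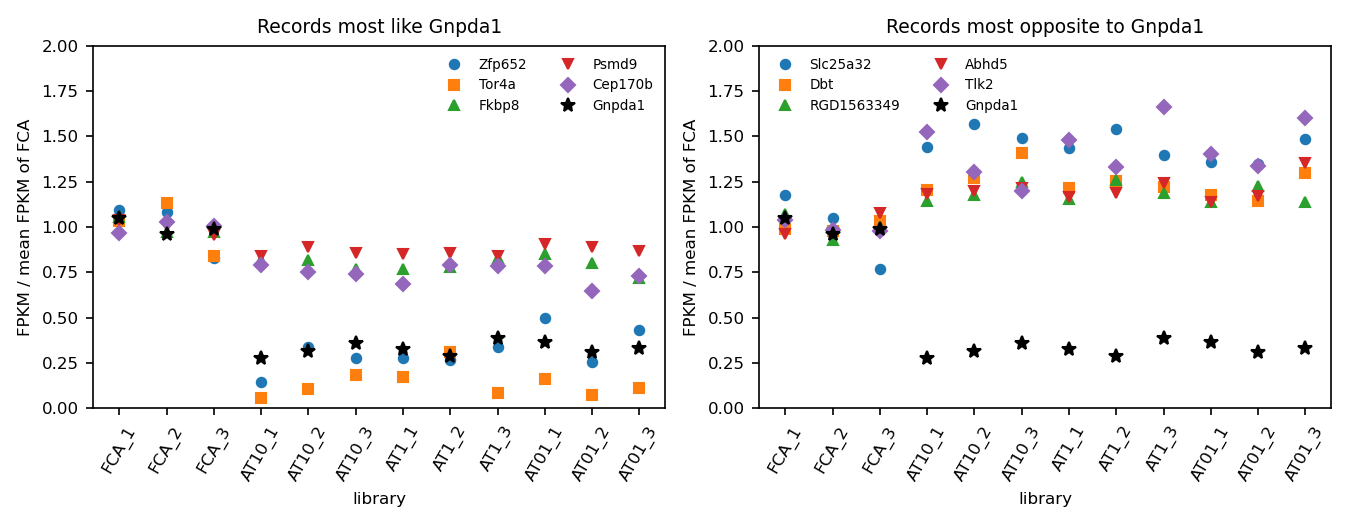
FPKM divided by the FCA mean of the same gene (linear axes starting at 0) in each of the 12 libraries, for Gnpda1 with the 5 records most like it (left) and the 5 most opposite (right). On the left every gene is lower in the TCDCA libraries than in FCA and on the right every gene but Gnpda1 is higher, with steps of unequal size.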

How the data were processed

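RNA-seq of 12 rat FLS libraries, 3 per group by the sample titles, was used. The authors deposited FPKM per gene record to 2 decimals, 1 column per library. The submitters' processing notes name cutadapt, HISAT2, StringTie and edgeR, and the paper's methods also name Ballgown. The genome build is not given in the sources used here. Read counts were not used here, so no count model was run. The paper lists the reads of each library, highest for AT01 replicate 3, but the number of reads behind each value is unknown.

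Values were taken as log2(FPKM + 1), a scale that understates changes of low genes. The 11611 records averaging 1 FPKM or more, all 9 members among them, were fitted with limma 3.58.1 in R 4.3.3 (moderated variance with a trend over expression), using only the groups compared, in 7 comparisons: each dose against FCA, the 9 TCDCA libraries against FCA, and doses against each other. P-values were adjusted over all records tested (Benjamini-Hochberg). Exact permutation tests are two-sided, and cannot go below p = 0.1 (3 libraries against 3) or p = 0.00455 (9 against 3). The scripts were tested on simulated data. Python 3.11.15, NumPy 2.4.6, SciPy 1.17.1, pandas 2.3.3 and Matplotlib 3.10.9 were used.

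Named genes were all members, fixed genes of the wider list with the 2 of highest mean in each sublist, records within 3 numbers of Gnpda1, and the 5 most like and 5 most opposite genes. Alg14 and Hyal2 were named after their values were seen, and some genes of the wider list are not reported here by name. The members and lists were chosen with earlier results of these data known. Alternatives covered the pseudocount, the filter, the test, the scaling, the records of a name, a replicate block and leaving out each library.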

Additional observations from a re-analysis of the deposited data

Results flagged for a closer look

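Gnpnat1 in AT01 replicate 2 was at 11.5 FPKM, the highest of the 9 TCDCA libraries, and the next was 7.34 FPKM. The gap took 0.54 of the range of those libraries, above Dixon's critical value of 0.493 for 9 values. The 9 members were each examined in this way, and chance flags about 1 in 20 groups.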

How the results depend on the processing

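In 66 values computed under other settings, the log2 difference of Gnpda1 from FCA was -1.65 to -1.46 in AT10 and -1.57 to -1.39 in AT1. It was -1.57 to -1.42 in AT01 and -1.59 to -1.46 in the pooled TCDCA libraries. Gnpda1 was picked by this contrast and its groups did not overlap, so its sign could hardly change and nothing is read from it. The count of partners called stayed at 0 under every setting tried. The sign of a partner value, none of them called, changed in 53 of 384 values with 1 library left out and in 10 of 483 under the other settings, and in 4 of the 340 whose reported size was at least 0.1. Libraries with the same replicate number did not deviate together (correlations of -0.105 to 0.0942 for same-numbered pairs and -0.154 to 0.149 for others), and with the replicate number as a block the count of partners called was 0 in each comparison. The count of wider pathway genes meeting the criterion of the study was 0 as reported, and by a Ballgown-type F test it was 1 in AT01 against FCA (Has2, -2.02) and 1 in AT10 against AT01 (Has2, 1.17). Leaving out 1 library gave counts of 0 to 1 against FCA. The 1 was Alg14 without FCA replicate 1 (-1.06 in AT10, -1.20 in AT1, -1.20 in AT01 and -1.15 pooled, the last also past the adjusted p) and Has2 without AT10 replicate 2 (-1.84) or without AT01 replicate 3 (-2.29, also past the adjusted p). The cause was not tested. With Spearman's rho, 1 of the 5 records most like Gnpda1 was shared with Pearson's r. The depth behind single values is unknown, 3 libraries per group leave intervals as wide as -1.30 to 0.72 (Gnpnat1 in AT01), and the median-of-ratios setting for Gnpda1 levels was chosen after seeing the data.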
